A study of Oryctolagus cuniculus with 36 samples.

Results

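The 8 genes followed here are read in liver as marks of the bile duct epithelium and of liver progenitor cells: SOX9, KRT7, KRT19, EPCAM, SPP1, PROM1, CFTR and CD24. They were chosen by name and not by a cut on their values, though with earlier results of these data known. Of the 23394 genes in the deposited table, 6 of the 8 were found by symbol and KRT19 was found through its RefSeq gene ID, which makes 7. CD24 was not analysed here. The counts of 6 of the 7 passed the filter on low counts and were tested, and CFTR did not pass it.

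Bile ducts are lined by cholangiocytes, epithelial cells that modify bile by moving chloride, bicarbonate and water, and that carry primary cilia. They arise in the embryo from hepatoblasts next to the portal vein under NOTCH and TGF beta signals, and SOX9 is among their earliest transcription factors. In injured livers of mice and humans, small duct-like cells with KRT7, KRT19, EPCAM, PROM1 and SPP1 can spread from the portal tract, a change known as the ductular reaction. None of these genes belongs to duct cells alone: KRT19 is also made by mesothelium, EPCAM by other epithelia, SPP1 by macrophages, and PROM1 by blood stem cells in humans.

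Rabbit liver RNA was sequenced in a series on CRISPR/Cas9 repair, in newborn animals, of hereditary tyrosinemia type I, the lack of FAH (fumarylacetoacetate hydrolase), which completes the breakdown of tyrosine. The titles give 3 groups, FA, FK and WT (wild type), each with 3 numbered sets of 4 libraries, and do not spell out FA or FK. Every sample, WT included, has the same tyrosinemia description, which leaves the titles as the basis of the groups, and the labels used here give no allele, vector, strain, sex or age. The livers of all groups had been treated with trypsin before RNA extraction.

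The 4 libraries of a set were summed, so that each group has n = 3 sets. Libraries held 15.1 to 22.5 M counts in FA, 11.7 to 16.1 M in FK and 14.2 to 18.7 M in WT. Values of sets are in CPM, counts per M counts after TMM scaling, and those of single libraries are counts per M of the library's own total, without that scaling. The labels do not tie sets or libraries to separate animals, so p-values measure only how far these sets differ from one another, and that spread may be technical. FAH had 25.7, 24.7 and 19.6 CPM in FA sets and 16.4, 11.8 and 14.6 CPM in FK sets, against 237, 271 and 218 CPM in WT sets. The summed CPM of 9 hepatocyte markers was 204720 to 268266 in FA, 140409 to 229500 in FK and 190438 to 255016 in WT. FK sets 1 and 2 stood apart on the first principal component, which held 56.7% of the variance, and FK set 3 lay there among the FA and WT sets. Results of members in FK are therefore also given without FK set 3, or sets 1 and 2, where a call or sign changed. Of the list genes, this holds for those called between FK and WT and for changes of sign.

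SOX9 passed the test between FK and WT, and no member passed it in another comparison. SPP1 was high in FK sets 1 and 2 alone, and EPCAM above all in FK set 2. KRT19 was low in FK set 3, and its libraries within FA sets 1 and 2 were far apart. KRT7 had lower means in FA and FK without passing the test. PROM1 and CFTR gave few counts.

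A gene was called at a Benjamini-Hochberg adjusted p under 0.05 in edgeR's quasi-likelihood test over 14939 genes. Of the 6 tested members 0 were called between FA and WT, where 25 genes or 0.167% of all were called, and 1 member, beside 10.2% of all genes, was under 0.05 before adjustment. Between FK and WT 1 of the 6 was called, against 4.77% of all genes, and 3 members, beside 26.9% of all genes, were under 0.05 before adjustment. Between FA and FK edgeR called 0 of the 6 and 0% of all genes. In that last comparison 2 members and 3275 genes, 21.9% of all, were under 0.05 before adjustment, and DESeq2 called 1 member and 1695 genes. The median fitted log2 difference of the 6 members was -0.71 for FA against WT, -0.41 for FK against WT and -0.30 for FA against FK, beside 0.00, 0.05 and -0.02 over all genes tested. The same WT sets serve both comparisons with WT, so these medians share their controls.

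**Figure D1:**
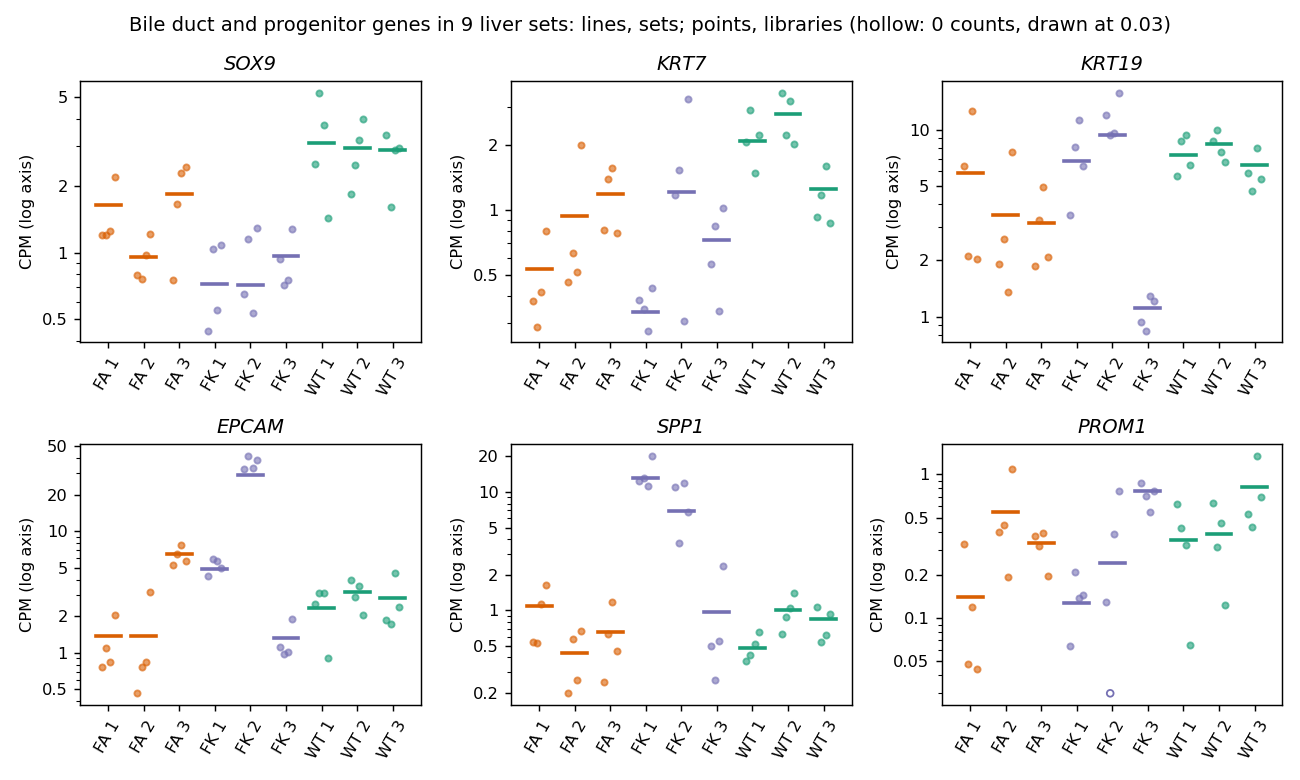
CPM on a log axis of 6 bile duct and progenitor genes in the 3 FA, 3 FK and 3 WT sets. Lines are sets after TMM scaling, points are single libraries per M of their own total, and a hollow point is a library with 0 counts. SOX9 lines of FA and FK lie below all WT lines, SPP1 is high in FK sets 1 and 2, and KRT19 points are spread widely within FA sets 1 and 2.

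SOX9, a transcription factor that cholangiocytes and liver progenitors keep into adult life, was the member with the clearest difference from WT. It had 1.64, 0.956 and 1.84 CPM in FA sets and 0.719, 0.713 and 0.963 CPM in FK sets, against 3.10, 2.95 and 2.90 CPM in WT sets. Every FA set and every FK set lay below every WT set, and the FA and FK sets overlapped slightly. The means were 1.48 ± 0.464 in FA, 0.798 ± 0.143 in FK and 2.98 ± 0.104 CPM in WT (SD, n = 3 each), from 286, 149 and 556 counts in all.

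In FK livers SOX9 was 3.73-fold lower than in WT livers, a log2 difference of -1.90 (SE 0.34; 95% interval -2.66 to -1.13) with a Benjamini-Hochberg adjusted p of 0.0340 in edgeR's quasi-likelihood test. In FA livers the log2 difference from WT was -1.01 (SE 0.33; 95% interval -1.75 to -0.27), which did not pass that test (edgeR adjusted p = 0.355, unadjusted 0.0134). FA against FK gave 0.89 (SE 0.33; 95% interval 0.14 to 1.64; edgeR adjusted p = 0.174), and passed without FK set 3 at 1.06 (edgeR adjusted p = 0.0442). In bulk liver RNA, fewer cells that make SOX9 and less SOX9 RNA per cell cannot be told apart.

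The size of the SOX9 difference between FK and WT held over 18 alternatives, at -2.07 to -1.66, while its call did not. The edgeR adjusted p was 0.0723 with only the 2 groups in the fit and 0.0806 with the set number as a block. It was 0.0672 without FA set 1, 0.0568 without FA set 3, 0.116 without FK set 1, 0.0832 without FK set 2, 0.138 without WT set 1, 0.123 without WT set 2 and 0.0935 without WT set 3. Without FK sets 1 and 2 the difference was -1.66 (edgeR adjusted p = 0.172), with the lone FK set assumed to vary like the other groups.

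Single libraries showed the same order. SOX9 had a lowest, median and highest library of 0.749, 1.20 and 2.41 CPM in FA, 0.446, 0.842 and 1.29 CPM in FK and 1.43, 2.91 and 5.22 CPM in WT (12 libraries each). The highest FK library was thus below the lowest WT library, and the FA and WT libraries overlapped.

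KRT7 and KRT19 are keratins, the filament proteins of epithelial cells, and both mark duct cells among the cells of the liver. KRT7 had 0.533, 0.940 and 1.19 CPM in FA sets and 0.336, 1.21 and 0.726 CPM in FK sets, against 2.09, 2.79 and 1.25 CPM in WT sets. No FA or FK set reached the lowest WT set, but the gap was small: the highest FK set, at 1.21 CPM, lay just under WT set 3 at 1.25 CPM. The log2 difference from WT was -1.20 in FA (SE 0.54; 95% interval -2.43 to 0.03; edgeR adjusted p = 0.497) and -1.43 in FK (SE 0.55; 95% interval -2.66 to -0.19; edgeR adjusted p = 0.139). Neither passed the test, and the sum of counts behind it was 167 in FA, 144 in FK and 381 in WT.

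SOX9, KRT7 and KRT19 were the 3 of 6 members whose FA sets all lay below all WT sets, beside 12.4% of all genes tested. For FK against WT this held for SOX9 and KRT7, 2 of 6, beside 13.4% of all genes. No member had all its FA or FK sets above all WT sets, and every member's FA and FK sets overlapped.

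Summed markers of stellate cells, endothelial cells, macrophages and B cells, too, lay below all WT sets in all FA sets. Sums of the other cell types' markers overlapped between FA and WT. The summed CPM of 9 stellate and myofibroblast markers was 122 to 165 in FA and 144 to 240 in FK, against 202 to 234 in WT, and that of 7 endothelial markers 125 to 189 in FA and 179 to 299 in FK, against 222 to 278 in WT. The sum of 9 macrophage markers was 305 to 411 CPM in FA and 496 to 735 CPM in FK, against 568 to 763 CPM in WT. That of 5 B cell markers was 2.16 to 4.24 CPM in FA and 1.54 to 4.06 CPM in FK, against 4.47 to 7.52 CPM in WT. All FA sets lay below all WT sets for 5 of the 9 stellate, 4 of the 7 endothelial, 4 of the 8 macrophage and 2 of the 5 B cell genes tested, beside 12.4% of all genes. Of these lists edgeR called 0 genes between FA and WT, beside 0.167% of all genes. Before adjustment 3, 3, 4 and 1 were under 0.05, beside 10.2% of all genes. The part of these cells in the values of SOX9, KRT7 and KRT19 was not tested.

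KRT19 had 5.89, 3.52 and 3.18 CPM in FA sets and 6.78, 9.34 and 1.11 CPM in FK sets, against 7.35, 8.42 and 6.48 CPM in WT sets. All FA sets were below the WT sets. The FK sets ran on both sides of WT, with FK set 2 the highest and FK set 3 the lowest of all 9. The log2 difference from WT was -0.82 in FA (SE 0.62; 95% interval -2.22 to 0.58; edgeR adjusted p = 0.712) and -0.37 in FK (SE 0.61; 95% interval -1.76 to 1.02; edgeR adjusted p = 0.739). For FA against FK it was -0.45 (SE 0.61; edgeR adjusted p = 0.692), which passed without FK set 3 at -0.92 (edgeR adjusted p = 0.043). FK against WT was 0.10 without FK set 3 and -2.77 (edgeR adjusted p = 0.0579) with FK set 3 as the lone FK set.

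**Figure D2:**
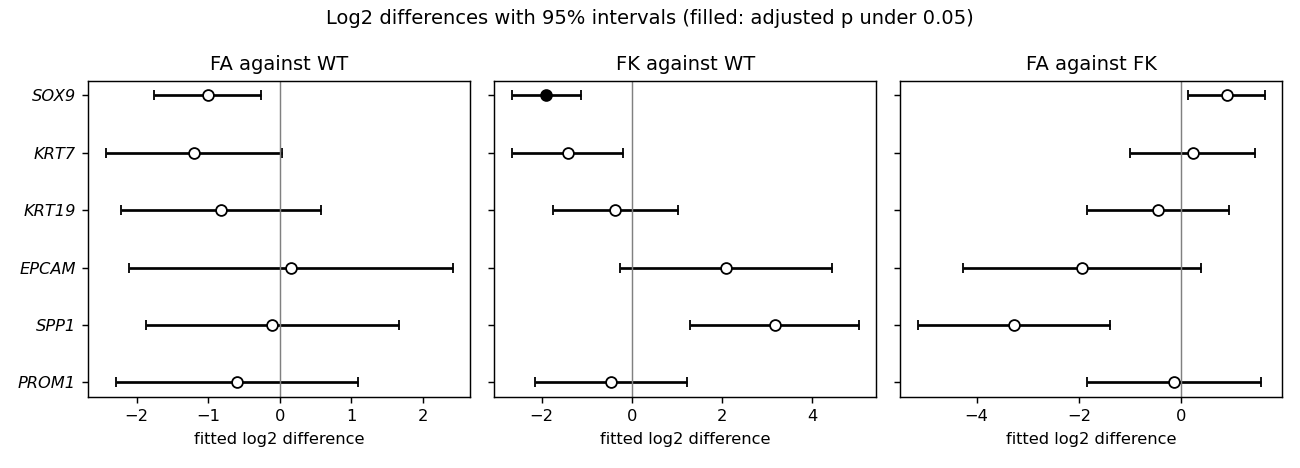
Fitted log2 differences of the 6 tested genes for FA against WT, FK against WT and FA against FK, with 95% intervals. SOX9 in FK against WT (-1.90) was the value called, and the SPP1 intervals that involve FK (centred on 3.17 and -3.27) exclude 0 before adjustment.

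EPCAM encodes an adhesion molecule of epithelial cells that hepatoblasts and duct cells also display. It had 1.36, 1.36 and 6.54 CPM in FA sets and 4.86, 29.2 and 1.32 CPM in FK sets, against 2.33, 3.14 and 2.83 CPM in WT sets. The WT sets were close together, while FA set 3 and FK sets 1 and 2 lay above them and FA sets 1 and 2 and FK set 3 below. The mean was 3.09 ± 2.99 in FA, 11.8 ± 15.2 in FK and 2.77 ± 0.408 CPM in WT (SD, n = 3 each).

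No comparison of EPCAM passed the test. The log2 difference was 0.16 for FA against WT (SE 1.00; 95% interval -2.11 to 2.42; edgeR adjusted p = 0.978), 2.09 for FK against WT (SE 1.03; 95% interval -0.25 to 4.43; 0.229) and -1.93 for FA against FK (SE 1.03; 95% interval -4.26 to 0.39; 0.304). Single sets decided the size and the sign. Without FK set 3, FK against WT was 2.61 (edgeR adjusted p = 0.0349) and FA against FK -2.46 (0.0433). Without FK set 2, FK against WT was 0.16 and FA against FK 0.01, and without FA set 3 FA against WT was -1.02.

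The high EPCAM sets were high in all their libraries. FK set 2 had 32.5 to 41.8 CPM in its 4 libraries, FK set 1 had 4.27 to 5.90 CPM, and FA set 3 had 5.24 to 7.71 CPM. The 12 WT libraries had 0.913 to 4.54 CPM, which the libraries of FK set 2 and FA set 3 did not overlap and those of FK set 1 did.

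PROM1 encodes prominin 1, also called CD133, a protein of membrane protrusions used as a mark of progenitor cells. It had 0.14, 0.551 and 0.335 CPM in FA sets and 0.128, 0.243 and 0.760 CPM in FK sets, against 0.351, 0.387 and 0.810 CPM in WT sets. All 3 groups overlapped. The log2 difference from WT was -0.59 in FA (SE 0.75; 95% interval -2.29 to 1.10; edgeR adjusted p = 0.848) and -0.45 in FK (SE 0.74; 95% interval -2.14 to 1.23; 0.734). With 64 counts in FA, 69 in FK and 96 in WT, these intervals leave room for differences of over 1 log2 unit either way.

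SPP1 encodes osteopontin, a secreted phosphoprotein that binds integrins and CD44 and that cholangiocytes and macrophages make. It had 1.08, 0.437 and 0.653 CPM in FA sets and 13.2, 6.87 and 0.963 CPM in FK sets, against 0.479, 1.01 and 0.842 CPM in WT sets. FK sets 1 and 2 were above all other sets, and FK set 3 lay within the range of WT. The log2 difference between FK and WT was 3.17 (SE 0.83; 95% interval 1.29 to 5.04), an 8.98-fold higher fitted level that did not pass (edgeR adjusted p = 0.0587, unadjusted 0.00413).

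The SPP1 difference was called by DESeq2 (3.15, adjusted p = 0.000715) and by edgeR without FK set 3 (3.66, adjusted p = 0.000554). Without FK sets 1 and 2 it was 0.27 (edgeR adjusted p = 0.860). FA against FK gave -3.27 (SE 0.83; 95% interval -5.15 to -1.39; edgeR adjusted p = 0.115), and it was called by DESeq2 (adjusted p = 0.000857) and by edgeR without FK set 3 (adjusted p = 0.000500). FA against WT gave -0.10 (SE 0.78; 95% interval -1.87 to 1.67; edgeR adjusted p = 0.982).

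FK sets 1 and 2 also had high values of marker genes of blood-forming cells. The summed CPM of 9 erythroid markers was 17.0, 21.1 and 6.16 in FA sets and 612.5, 1691 and 13.4 in FK sets, against 15.5, 28.9 and 78.0 in WT sets. That of 8 neutrophil markers was 25.3, 41.2 and 18.9 in FA sets and 1195, 2057 and 27.8 in FK sets, against 16.5, 27.7 and 24.0 in WT sets. Genes of dividing cells followed, with a sum over 7 genes of 8.93 to 11.9 CPM in FA and 254, 539 and 10.9 CPM in FK sets, against 8.85 to 13.2 CPM in WT. The order of the 2 sets was not the same for all: FK set 2 was the higher one for these 3 sums and for EPCAM, and FK set 1 for SPP1.

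Macrophages are another known source of SPP1. Their 9 markers summed to 386, 411 and 305 CPM in FA sets and 735, 538 and 496 CPM in FK sets, against 763, 568 and 604 CPM in WT sets, with 1 of the 9 at 0 in FA. Within FK their order was that of SPP1, with set 1 the highest and set 3 the lowest, and all 3 FK sums lay below the highest WT sum. This order was not theirs alone. In FK sets the sum of 6 blood progenitor markers was 32.3, 30.1 and 7.21 CPM, against 5.80 to 8.10 CPM in WT. That of 7 endothelial markers was 299, 186 and 179 CPM in FK sets, against 222 to 278 CPM in WT. The 7 intestinal epithelium markers summed to 14.1, 17.7 and 1.84 CPM in FK sets, in the set order of EPCAM. Their sums were 1.46, 2.58 and 1.22 CPM in FA sets and 1.87, 4.82 and 3.92 CPM in WT sets. FA set 3, where EPCAM was high, thus had the lowest of the FA sums. The part of blood-forming cells, dividing cells, macrophages, endothelial cells and other epithelia in the SPP1 and EPCAM values was not tested.

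**Figure D3:**
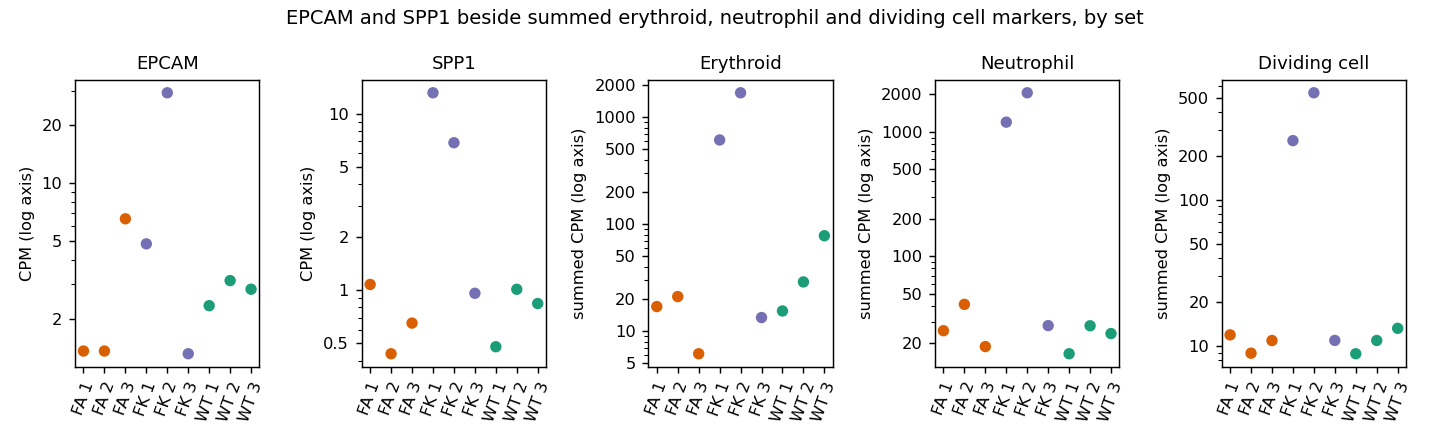
CPM of EPCAM and SPP1 beside the summed CPM of erythroid, neutrophil and dividing cell markers in the 3 FA, 3 FK and 3 WT sets, all on log axes. FK sets 1 and 2 are high in the 3 marker sums and in SPP1, and FK set 3 lies near the FA and WT sets.

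Single libraries of SPP1 followed their sets. The lowest, median and highest library had 0.199, 0.557 and 1.64 CPM in FA, 0.259, 8.91 and 20.3 CPM in FK and 0.375, 0.643 and 1.41 CPM in WT. The 8 libraries of FK sets 1 and 2, at 3.68 to 20.3 CPM, did not overlap with any FA or WT library. In 8 of the 9 sets the library with the highest SPP1 was also the one with the highest erythroid sum, a pair picked out after the counts were seen. The macrophage sum shared its highest library with SPP1 in 7 sets, and the endothelial and dividing cell sums in 6 each. The sums of duct cell keratins, junction and surface proteins and of NOTCH pathway genes, both lists followed below, also did so in 6 each. None of this was tested.

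CFTR is the chloride channel of the duct cell surface. It gave 4 counts over the 12 FA libraries and 7 over the 12 FK libraries, against 3 over the 12 WT libraries. This is 0.0208 CPM in FA (exact Poisson 95% interval 0.00565 to 0.0531), 0.0373 CPM in FK (0.0150 to 0.0768) and 0.0161 CPM in WT (0.00332 to 0.0470), and the intervals cover counting error only. The intervals overlap, 9 FA, 7 FK and 10 WT libraries had 0 counts, and a difference was not detectable at this depth.

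The libraries within a set were not alike for KRT19. In FA set 1 they had 6.40, 2.11, 12.6 and 2.04 CPM, and in FA set 2 they had 1.92, 2.60, 1.36 and 7.60 CPM. The chi-square per degree of freedom of the KRT19 counts over the 4 libraries was 85.8 in FA set 1, 38.6 in FA set 2 and 22.2 in FK set 1. In these sets 0.116%, 0.203% and 0.388% of the genes with totals of 21 to 1926 counts had a value as high or higher. In FK set 3 it was 0.68, no more than counting noise gives, and in the WT sets 3.72 to 6.31. At an equal relative spread this measure grows with the count, which was 66 in FK set 3 and 400 to 523 in WT sets. The highest KRT19 library had 1.54 times the CPM of the lowest in FK set 3, and 1.47 to 1.69 times in WT sets.

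**Figure D4:**
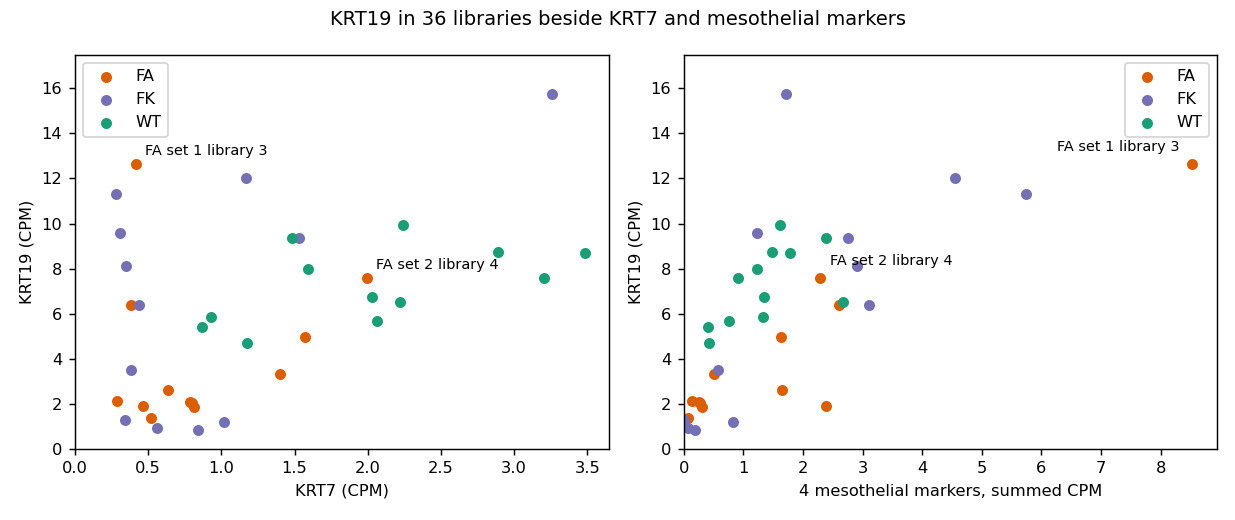
KRT19 in each of the 36 libraries beside other measures of the same library, namely KRT7 (left) and the summed mesothelial markers (right), in CPM of the library's own total on linear axes, coloured by group. FA set 1 library 3 has the highest mesothelial sum (8.53 CPM) with a KRT19 of 12.6 CPM, while in FA set 2 library 4 KRT19 (7.60 CPM) is high together with KRT7 (1.99 CPM).

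The high libraries of FA sets 1 and 2 differed in the genes that were high with KRT19. In library 4 of FA set 2, KRT7 had 1.99 CPM against 0.464 to 0.635 CPM in the other libraries of the set, EPCAM 3.14 against 0.464 to 0.841 CPM, and PROM1 1.09 against 0.194 to 0.445 CPM. SOX9 was the highest there as well, at 1.21 against 0.762 to 0.970 CPM. Ordered by their excess over the other libraries of the set, KRT19 ranked 13, EPCAM 18 and KRT7 35 among 14939 genes.

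Genes of mucous and absorptive epithelia led that order, and are named here after their values were seen. DMBT1, a secreted mucosal defence protein, had 31.4 CPM in library 4 against a mean of 2.08 CPM in the other 3. DUOX2, an oxidase that makes hydrogen peroxide at epithelial surfaces, had 27.3 against 1.93 CPM, the mucin MUC4 had 4.77 against 0.15 CPM, and CDH17, a cadherin of intestinal epithelium, had 2.84 against 0.04 CPM. The smooth muscle genes MYH11 (16.7 against 2.92 CPM) and ACTA2 (12.8 against 3.31 CPM) were high there too. MUC1, from the list of duct cell keratins, junction and surface proteins followed below, ranked 14 (1.63 against 0.149 CPM). That list as a whole summed to 1416 CPM in this library and 1251 to 1422 CPM in the others of the set. The summed CPM of 7 intestinal epithelium markers was 5.31 in this library and 1.13 to 2.10 in the other libraries of the set. CDH17 is among these 7 genes and gave 2.84 of the 5.31 CPM, so the sum is not separate from the CDH17 value. The part of duct epithelium, of other epithelia and of smooth muscle in the values of this library was not tested.

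In library 3 of FA set 1, KRT19 ranked 17 and was high without the other members. KRT7 had 0.417 CPM there against 0.288 to 0.799 CPM in the other libraries of the set, EPCAM 0.835 against 0.759 to 2.04 CPM, and SOX9 1.25 against 1.19 to 2.18 CPM. The summed CPM of 4 mesothelial markers was 8.53 there against 0.144 to 2.60 CPM. ALDH1A2, a retinoic acid enzyme of mesothelium, had 12.8 against a mean of 1.77 CPM, and LRRN4, a membrane protein of mesothelium, 5.31 against 0.58 CPM, named after their values were seen. LRRN4 is among the 4 markers summed and gave 5.31 of the 8.53 CPM, so its value is not separate from the sum. In FK set 1, too, the library with the highest KRT19 (11.3 CPM) had the highest mesothelial sum (5.73 CPM) and the one with the lowest KRT19 (3.50 CPM) the lowest sum (0.573 CPM). Over the 9 sets, KRT19 and the mesothelial sum shared their highest library in 3. In FK set 2, KRT19 was highest in library 4 (15.8 CPM) and the mesothelial sum in library 1 (4.55 CPM). The stellate and myofibroblast sum shared its highest library with KRT19 in 5 sets. The part of mesothelial and stellate cells in KRT19 was not tested. With both FA libraries left out, 0 members were called between FA and WT and 1 between FK and WT, as with all libraries.

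Across the 9 sets, some pairs of members often shared their highest library and others seldom did. KRT7 and EPCAM shared their highest library in 7 of the 9 sets, SOX9 and KRT7 in 6, SOX9 and SPP1 in 6, and KRT7 and KRT19 in 4. The same pairs shared their lowest library in 2, 1, 4 and 1 sets. SOX9 and KRT19, SOX9 and PROM1, KRT19 and SPP1, and PROM1 and SPP1 shared their highest in 2 sets each. These counts were not tested. KRT7 and EPCAM each also had their highest library where the intestinal marker sum was highest in 7 of the 9 sets, and PROM1 in 6. That list overlaps with duct epithelium in part, and 1 of its 7 genes in FA and 2 in FK and in WT had 0 counts. The summed duct cell keratins, junction and surface proteins shared their highest library with SOX9 in 7 sets and with KRT7 in 6. For EPCAM this held in 4 sets, and for KRT19 and PROM1 in 2 each. No member had its library pattern led by the hepatocyte markers in more than 2 sets.

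Over the 9 sets, the members resembled one another only in part. Likeness was measured as the root mean square difference of log2 CPM after each gene's mean was removed, where 0 is the same pattern. SOX9 and KRT7 were the closest members at 0.66, followed by KRT7 and PROM1 at 0.88, and SOX9 and SPP1 were the farthest at 2.18. The genes of the whole table closest to SOX9 were PALMD (0.19), SLC26A8 (0.20) and IL21R (0.21). Those closest to KRT7 were CX3CR1 (0.30), CAMK2B (0.38) and TNFSF8 (0.40), and to KRT19 HCST (0.32) and PDZK1IP1 (0.32). EPCAM was less closely matched, by FUT4 (0.61), ACE (0.63) and ANKRD35 (0.65), and SPP1 had STAP1 (0.38), STX11 (0.39) and CXCL8 (0.39). CX3CR1, CAMK2B, TNFSF8, HCST and ANKRD35 had means of 0.33, 0.36, 0.22, 0.18 and 0.28 CPM, so their patterns rest on few counts. With 9 sets these likeness values describe patterns and carry no test.

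Other genes of duct cells and progenitors were followed in 7 lists. Between FA and WT edgeR called 0 genes of any list, beside 0.167% of all genes. Before adjustment 0 to 3 genes per list were under 0.05, beside 10.2% of all genes. The list medians of that comparison were -0.49 to 0.04 on the log2 scale, beside 0.00 for all genes. For FK against WT, the counts that follow stand beside 4.77% of all genes called, 26.9% under 0.05 before adjustment and an all-gene median of 0.05.

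Among 15 keratins, junction and surface proteins of duct cells, 1 rose and 0 fell in FK against WT, with a median of -0.30. The keratin KRT23 had 5.07, 6.71 and 3.48 CPM in FA sets and 21.8, 22.5 and 6.61 CPM in FK sets, against 2.16, 1.95 and 4.34 CPM in WT sets. Every FK set lay above every WT set, and its log2 difference was 2.59 (SE 0.53; edgeR adjusted p = 0.0408). Between FA and WT the gene of this list with the smallest p was ST14, a membrane protease of epithelia. It had 3.80, 3.01 and 2.49 CPM in FA sets and 3.13, 8.96 and 3.29 CPM in FK sets, against 11.1, 19.5 and 11.3 CPM in WT sets. All FA sets were below all WT sets, but the difference of -2.17 did not pass (SE 0.46; edgeR adjusted p = 0.168). TSPAN8, a tetraspanin of epithelial cells, had the smallest p for FA against FK (-4.22, edgeR adjusted p = 0.115), with 1.52, 1.04 and 2.56 CPM in FA sets against 33.7, 60.1 and 1.23 CPM in FK sets.

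Of 16 transport and cilium genes of duct cells, 15 were tested, and 2 rose and 0 fell in FK against WT, beside 4.77% of all genes called, with a median of 0.17. SLC12A2, which loads cells with chloride, had 5.46, 16.9 and 12.8 CPM in FA sets and 29.0, 17.4 and 35.7 CPM in FK sets, against 7.32, 3.77 and 3.52 CPM in WT sets. All 3 FK sets, set 3 included, were above all FA and WT sets (log2 difference from WT 2.49, SE 0.48, edgeR adjusted p = 0.0368). CA2, a carbonic anhydrase of duct cells and also of red blood cells, had 8.17, 18.9 and 9.15 CPM in FA sets and 592, 503 and 16.7 CPM in FK sets, against 5.65, 5.40 and 12.6 CPM in WT sets. It was high in the FK sets with high erythroid markers, at a log2 difference from WT of 5.55 (SE 1.15; edgeR adjusted p = 0.0414). ATP12A had 0 counts in every library.

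Of 11 transcription factors of duct and progenitor cells, 0 were called in FK against WT by edgeR, with 2 under 0.05 before adjustment and a median of -0.12. EHF, an epithelial factor of the ETS family, had the smallest p in both comparisons with WT. It had 1.46, 1.09 and 2.36 CPM in FA sets and 1.07, 1.15 and 2.03 CPM in FK sets, against 3.31, 3.09 and 4.11 CPM in WT sets. As with SOX9, all FA and FK sets lay below all WT sets, and neither the -1.10 in FA nor the -1.31 in FK passed (edgeR adjusted p = 0.396 and 0.0800). Over 18 alternatives the EHF difference between FK and WT ran from -1.67 to -0.82.

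Of 11 surface and signal genes of liver progenitors, 1 rose and 2 fell in FK against WT, beside 4.77% of all genes called, with a median of 0.73 beside 0.05 for all genes. AFP, an albumin-like plasma protein of fetal hepatocytes, had 973, 68.8 and 519 CPM in FA sets and 871, 2391 and 228 CPM in FK sets, against 0.990, 4.09 and 2.48 CPM in WT sets. All FA and FK sets were far above WT. The log2 difference was 8.85 in FK (SE 1.41; edgeR adjusted p = 0.0255) and 7.69 in FA (SE 1.34; edgeR adjusted p = 0.0840), the smallest p of the list between FA and WT.

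LGR5, a receptor that strengthens WNT signals in hepatocytes around the central vein and in injured ducts of mice, fell in FK. It had 8.49, 5.65 and 5.39 CPM in FA sets and 4.91, 0.864 and 5.86 CPM in FK sets, against 26.6, 17.6 and 25.6 CPM in WT sets, and the FK difference was -2.59 (SE 0.59; edgeR adjusted p = 0.0475). TNFSF12, which encodes TWEAK, a cytokine that makes mouse progenitors divide, had 3.65, 3.18 and 1.44 CPM in FA sets and 1.63, 1.77 and 2.69 CPM in FK sets, against 5.02, 9.42 and 6.41 CPM in WT sets. Its FK difference was -1.77 (SE 0.41; edgeR adjusted p = 0.0489). For both genes all FA sets lay below all WT sets too. CD44, a receptor of hyaluronan and osteopontin, had the smallest p of the list for FA against FK, with 9.84, 6.72 and 8.72 CPM in FA sets against 45.2, 38.0 and 9.17 CPM in FK sets (-1.87, SE 0.49, edgeR adjusted p = 0.115). Over 18 alternatives this CD44 difference ran from -2.28 to -0.0862, and with 1 set left out from -2.28 to -1.49.

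**Figure D5:**
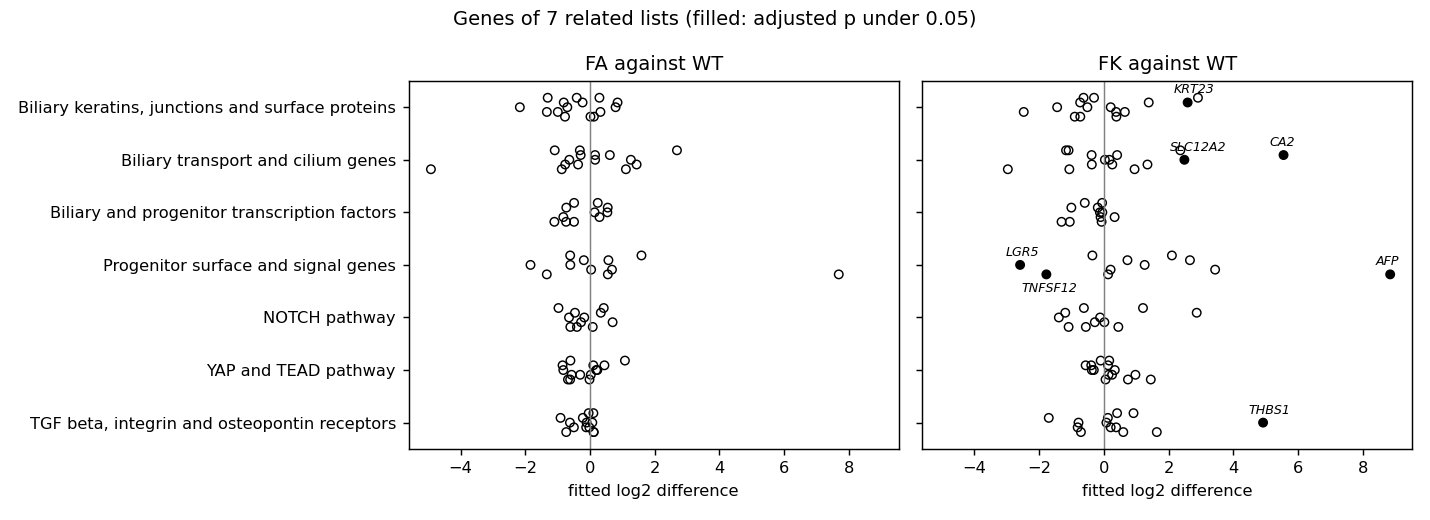
Fitted log2 differences of the genes of 7 related lists for FA against WT and FK against WT. Each point is a gene, filled where the adjusted p was under 0.05. No gene was called in FA, and 7 were called in FK, 5 higher and 2 lower.

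Of 11 NOTCH pathway genes edgeR called 0 in FK against WT, with 4 under 0.05 before adjustment and a median of -0.28. HEY1, a NOTCH target, had the smallest p, with 2.40, 3.66 and 3.21 CPM in FA sets and 24.0, 27.8 and 1.99 CPM in FK sets, against 2.75, 2.38 and 2.22 CPM in WT sets (log2 difference from WT 2.87, SE 0.76, edgeR adjusted p = 0.0604). Like SPP1, it was high in FK sets 1 and 2 and at the WT level in FK set 3.

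Of 15 YAP and TEAD pathway genes 14 were tested, and edgeR called 0 in FK against WT, with 2 under 0.05 before adjustment and a median of 0.14. AJUBA, a LIM protein that restrains the kinases upstream of YAP, had the smallest p (1.45, edgeR adjusted p = 0.123), with 3.55, 4.00 and 3.70 CPM in FA sets and 21.0, 22.1 and 3.97 CPM in FK sets, against 7.04, 5.48 and 4.68 CPM in WT sets.

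Of 14 TGF beta, integrin and osteopontin receptor genes 13 were tested, and 1 rose and 0 fell in FK against WT, with a median of 0.21. THBS1, thrombospondin 1, which activates latent TGF beta and is also stored in platelets, had 6.99, 6.17 and 8.22 CPM in FA sets and 289, 314 and 13.4 CPM in FK sets, against 7.20, 5.51 and 7.61 CPM in WT sets. Its log2 difference was 4.92 (SE 0.95; edgeR adjusted p = 0.0368), carried by FK sets 1 and 2. The part of the blood cell markers in the rises of CA2, THBS1 and KRT23 was not tested.

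The 7 calls of the lists in FK against WT depended on the sets in the fit. All 7 were lost with only the 2 groups compared, with the set number as a block, without FA set 3, without FK set 1, and without any of the 3 WT sets. The highest edgeR adjusted p over 18 alternatives was 0.295 for KRT23, 0.147 for SLC12A2, 0.405 for CA2, 0.122 for AFP, 0.161 for LGR5, 0.303 for TNFSF12 and 0.172 for THBS1. With FK set 3 as the lone FK set, the log2 differences from WT were 6.46 for AFP, 2.84 for SLC12A2, -2.02 for LGR5 and -1.40 for TNFSF12, but 1.20 for KRT23, 1.05 for CA2 and 0.95 for THBS1.

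The other genes with the smallest p of a list between FA and WT lay mostly lower in FA, without a call. The chloride channel gene ANO1, so named by RefSeq, had 0.0702, 1.46 and 0.117 CPM in FA sets and 0.0799, 0.698 and 5.57 CPM in FK sets, against 26.6, 1.29 and 21.7 CPM in WT sets. Its groups overlapped through WT set 2, and the log2 difference of -4.91 had a wide error (SE 1.76; edgeR adjusted p = 0.400). The receptor NOTCH3 differed by -0.97 (SE 0.32; edgeR adjusted p = 0.369), the YAP target AXL, a receptor kinase, by -0.85 (SE 0.24; 0.291), and the ligand TGFB2 by -0.91 (SE 0.55; 0.624).

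Between FA and FK edgeR called 0 list genes, as it called 0 over all genes. Before adjustment 1 to 5 genes per list were under 0.05, beside 21.9% of all genes. The smallest p of their lists belonged to CA2 (-4.94), HEY1 (-2.54), AJUBA (-2.06) and THBS1 (-4.85), all with lower means in FA than in FK and edgeR adjusted p of 0.115 to 0.123. Over 18 alternatives the smallest difference was -0.43 for CA2, -0.0460 for AJUBA and -0.87 for THBS1, and HEY1 changed sign. With 1 set left out the smallest was -4.43 for CA2, -1.73 for AJUBA and -4.40 for THBS1. GATA6, a transcription factor of early liver endoderm, went the other way, with 4.80, 4.81 and 4.05 CPM in FA sets against 3.23, 2.82 and 2.60 CPM in FK sets (0.66, SE 0.27, edgeR adjusted p = 0.199). Its FA sets all lay above its FK sets.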

How the data were processed

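Estimated counts per gene for 36 libraries, whole numbers as deposited by the authors, were used. Salmon 0.14.1 is named per the submitters' processing notes, while its role and the genome build are not given in the sources. Livers were treated with trypsin, RNA was extracted with TRIzol and libraries were made with a TruSeq kit, per the labels' protocols. The labels do not state whether strand was kept. Groups were taken from titles. The 4 libraries of a set were summed, which gave 53.2 to 78.6 M counts per set. A quasi-likelihood model over all 9 sets was fitted with edgeR 4.0.16 under R 4.3.3, after filterByExpr and TMM normalization. This left 14939 genes, over which p-values were adjusted. The scripts were tested on simulated data. Names come from the table and from RefSeq genes of assembly mOryCun1.1, without coordinates, and 2 list genes were matched by their older symbols.

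The members, the lists and the tests were chosen with earlier results of these data known. All members were named. Of each list the genes called in a comparison were named, at most 4 by smallest p, or the one with the smallest p where none was called. The 3 genes closest in pattern were named per member, except for PROM1 and CFTR, and 1 gene that the rule names is not reported here. Alternatives were DESeq2 1.42.0, RLE factors, no filter, a minimum of 1 CPM in 3 sets, only the 2 groups compared, the set number as a block, 36 libraries as replicates, and each set left out. Leaving out 2 FA libraries, or FK sets 1 and 2, was chosen after the data were seen. No promoter was searched for motifs. Figures were drawn with matplotlib 3.10.9 in Python 3.11.15.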

Additional observations from a re-analysis of the deposited data

Results flagged for a closer look

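For the 6 tested genes, 54 sets of 4 libraries were examined, and in 5 of them the highest library stood apart from the rest, with a gap to its nearest neighbour wider, as a share of the set's whole range, than Dixon's 95% limit for 4 values. About 1 in 20 such sets would be marked by chance. SOX9 in FA set 1 had 2.18 CPM in library 4 and 1.19 to 1.25 CPM in the other libraries, a gap of 0.940 of the range. KRT7 in FA set 2 had 1.99 CPM in library 4 and 0.464 to 0.635 CPM in the others (0.888), and EPCAM in the same library 3.14 CPM and 0.464 to 0.841 CPM in the others (0.859). EPCAM in FK set 3 had 1.91 CPM in library 4 and 0.971 to 1.12 CPM in the others (0.842), and SPP1 in the same library 2.35 CPM and 0.259 to 0.546 CPM in the others (0.863). By chi-square per degree of freedom, 32.5% of genes with 21 to 1926 counts spread at least as much as SOX9 in FA set 1. The share was 46.4% for EPCAM in FK set 3, and 3.03% for KRT7 and 0.629% for EPCAM in FA set 2.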

How the results depend on the processing

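Over the alternatives, 273 of 315 differences of members kept their direction and side of the threshold, 10 lost a call, 16 gained one and 16 changed sign. The number of genes called in FA against WT, FK against WT and FA against FK was 25, 712 and 0. It was 352, 2591 and 1695 with DESeq2, and 4330, 7372 and 6984 with 36 libraries as replicates. With only the 2 groups compared it was 235 and 43 for the comparisons with WT, with the replicate block 3 and 47, and without FK sets 1 and 2 189 and 77. Leaving out each set gave 2 to 247, 22 to 5396 and 0 to 5324. The highest counts all came without FK set 3. Of the members, DESeq2 called 2 in FK against WT and 1 in FA against FK, and the fit of 36 libraries called 2, 4 and 3 in the order above. For FK against WT 0 were called with the 2 groups alone, with the replicate block and without FK sets 1 and 2. Leaving out each set gave 0 to 3 members for FK against WT and 0 to 4 for FA against FK.

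The sign changed for members whose differences were not called. With a set left out, FA against WT ran from -1.02 to 0.51 for EPCAM and from -0.52 to 0.16 for SPP1, and FK against WT from -0.91 to 0.10 for KRT19 and from -1.48 to 0.00344 for PROM1. FA against FK ran from -0.13 to 0.75 for KRT7, from -0.92 to 0.0914 for KRT19, from -3.10 to 0.00649 for EPCAM and from -0.66 to 0.89 for PROM1. Without FK sets 1 and 2, FK against WT was -1.10 for EPCAM and 0.53 for PROM1, and FA against FK was 1.95 for KRT19 and 1.26 for EPCAM. With the replicate block, FA against FK was 0.0691 for PROM1. Of the genes named from lists, 4 differences changed sign, all without FK sets 1 and 2: FK against WT was -0.33 for HEY1 and -0.56 for AJUBA, and FA against FK 0.50 for TSPAN8 and 0.67 for HEY1. The causes were not tested. Sets with the same number did not deviate together (r of deviations -0.087 to 0.099, against -0.095 to 0.115 for other pairs). With 3 sets a group this shows no pairing by number but cannot exclude one. RLE factors and both other filters kept the members' calls, but the minimum of 1 CPM left out SPP1 and PROM1, and the fit of 36 libraries PROM1. The counts of PROM1 and CFTR limit what their values can show.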
